A study of Homo sapiens with 14 samples.

Results

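The regions described here were 1632 stretches of intergenic DNA at which p50 and p52 gave similar numbers of ChIP-seq reads in L1236 cells. L1236 is an established cell line from Hodgkin lymphoma, a B cell tumour in which NF-κB is active without stimulation. A region was taken as a member if it lay outside every annotated gene, more than 10 kb and at most 100 kb from the closest transcription start site (TSS), and if the log2 ratio of its p50 to its p52 reads was between -0.7 and 0.7. Each count was raised by 1 and scaled to the subunit's reads over all regions. The 1632 members were 11% of the 14865 ChIP-seq regions of the series, which are the union of the regions called for p50, p52, RelB or RelA. The window from 10 to 100 kb held 3208 intergenic regions, and 698 others of them were skewed to p50 and 878 to p52.

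The 14 libraries were all from L1236 cells in plain serum-containing medium, with no agent, knockdown or time point in the labels. They comprised 2 libraries each for p50, p52, RelB and RelA and 6 of input DNA. The p50 antibody was a goat polyclonal, and the RelB and RelA antibodies were rabbit polyclonals. The p52 replicates used different antibodies, a mouse monoclonal and a rabbit polyclonal. All libraries come from a single cell line, and the read counts, fold enrichments and summits are each given for the merged replicates, so that no error over replicates and no test over samples can be given for them. Shares are printed with Wilson 95% intervals and medians with exact binomial 95% intervals, both of which cover counting over regions only.

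NF-κB proteins bind DNA as dimers. RelA and RelB carry a transactivation domain, whereas p50 and p52, which are processed from the precursors p105 and p100, have none and activate genes mainly with a Rel partner or a co-activator such as BCL3. In the canonical pathway IκB proteins release dimers such as p50-RelA, and in the non-canonical pathway processing of p100 yields p52-RelB. Much NF-κB binding lies far from promoters, at enhancers, so that intergenic sites are assigned to genes only by distance.

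A member near CSF2, which encodes the growth factor GM-CSF, holds an amplicon that the study designed for quantitative PCR. The primers are shown because they fix the exact stretch of a distal site with p50 and p52 but no Rel call. Sequences are those of the study's list, 5′ to 3′, in lower case throughout with no base singled out.
CSF2_SP3: catcttcagctggattcaacac
CSF2_RP3: aactgatacctttctgggtgac

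On genome build hg18, the amplicon (73 bp, chr5:131464373-131464445, plus strand) lay in the member chr5:131463442-131466271, whose nearest edge was 26058 bp downstream of the TSS. All distances of members are those of the nearest edge. The p50 and p52 summits lay 5 and 43 bp outside the amplicon. The member held 173 p50, 216 p52, 47 RelB and 36 RelA reads and was called for p50 (fold enrichment over input 9.62) and p52 (16.1) only.

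The ratio limits fall in a continuous range. The members nearest the upper limit had log2 ratios of 0.6999 (137 p50 and 92 p52 reads) and 0.6991 (217 and 146), and the regions next outside had 0.7009 (48 and 32 reads upstream of APBB1IP, 97 and 65 upstream of ECE1). At the lower limit the ratios were -0.6995 for both members inside (44 and 79 reads, 17 and 31 reads) and -0.7006 for both regions outside (85 and 152 reads each). The members closest to a TSS lay at 10024 and 10101 bp and the most distant ones at 99923 and 99895 bp. Just outside lay regions at 9984, 9979, 100194 and 100233 bp.

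Since the members were chosen by their p50 and p52 reads, their p50 and p52 calls are a description. Of the members, 1239 (75.9%) were called for p50, beside 73.8% of all union regions, and 1426 (87.4%) for p52, beside 73.3%. Both were called at 1119 (68.6%), beside 51.4%. The largest class was p50 with p52 and no Rel protein (701 members, 43.0%, beside 31.8% of all union regions). It was followed by p50, p52 and RelB (367, 22.5%, beside 17.1%) and p52 alone (280, 17.2%, beside 19.8%). Then came p50 alone (111, 6.80%, beside 21.2%), RelB alone (74, 4.53%, beside 3.83%) and all 4 subunits (49, 3.00%, beside 2.35%). Each of the other 7 combinations held at most 24.

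Since the rule limits the ratio of p50 to p52 reads, members called for only 1 of the subunits also held reads of the other. The 307 members called for p52 without p50 had a median of 62.2 p50 and 87.6 p52 reads per kb. The 120 called for p50 without p52 had 88.2 p50 and 71.1 p52 reads per kb. Over the members with both calls the medians were 114 and 131 reads per kb, and these regions were also wider (993 bp, interval 963 to 1018) than the members with 1 of the calls (625 bp, 596 to 662).

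The median fold enrichment of called members was 17.6 for p50 (interval 16.9 to 18.5, n = 1239) and 17.4 for p52 (16.9 to 18.3, n = 1426). In all union regions the medians were 16.8 and 17.2, and in balanced regions inside genes (over 10 kb from a TSS, n = 2237) 17.3 and 17.3. Balanced intergenic regions beyond 100 kb (n = 841) had 17.0 and 16.9. The intervals of the members' medians overlapped those of the other balanced sets for both subunits. The rule also holds the fold enrichments of both subunits close to each other. Where both were called, they differed by at most a factor of 2 at 1093 of 1119 members, and p50 was the higher one at 425.

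**Figure D1:**
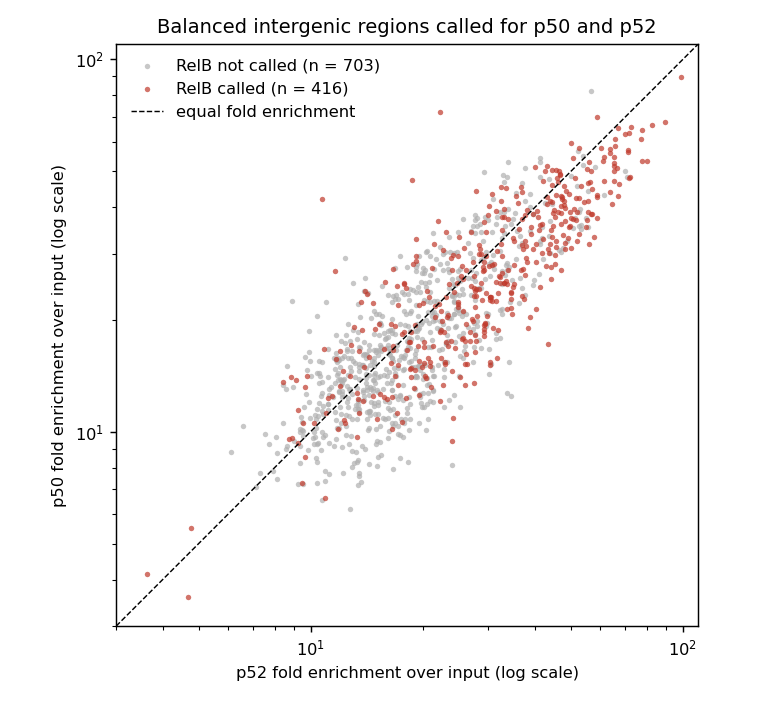
Fold enrichment over input of p52 (x axis) and p50 (y axis), both on log scales, for the 1119 members called for both subunits, with RelB calls in red and the dashed line at equal values. The points follow the line from about 4 to over 80, as the limited read ratio of the members requires, and the RelB calls lie mostly in the upper part, where 182 of the 280 strongest members were called.

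The summits of p50 and p52 nearly coincided. Their median distance was 11 bp (interval 10 to 12, n = 1119), and it was at most 50 bp at 88.1% and at most 250 bp at 95.4% of these members. In all union regions called for both, the median was also 11 bp and the share within 250 bp 95.3%. RelB summits lay a median of 16 bp from those of p50 (n = 425) and 17 bp from those of p52 (n = 443). The median width of the members was 856 bp (interval 822 to 877), beside 863 bp over all union regions.

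The strongest member for p50 and p52 was chr7:154829667-154830966, 22424 bp downstream of a TSS whose gene the tables used here do not name. It held 568 p50, 641 p52, 184 RelB and 56 RelA reads, with fold enrichments of 89.4, 98.9 and 41.5 for p50, p52 and RelB. Its paired signal values, 1 for each replicate, were 3403 and 2679 for p50, 1171 and 5045 for p52 and 802 and 2726 for RelB. The second value was the larger one for p52 and RelB, as in the medians over the members (235 and 429 for p52, 167 and 325 for RelB). Of the 10 strongest members, 9 were called for RelB and 2 for RelA.

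Among these 10, 3 lay upstream of a named gene. The member chr7:5546859-5549035, 10101 bp upstream of ACTB (cytoplasmic actin, a common reference gene), had fold enrichments of 64.5 for p50, 77.5 for p52 and 24.1 for RelB. A second ACTB member, 26923 bp upstream, had 31.8, 36.9 and 6.96. The member chr21:33676970-33678206, 18866 bp upstream of IFNGR2 (a chain of the interferon gamma receptor), had 61.0, 77.4, 33.3 and, for RelA, 7.08. At chr16:67311237-67312596, 16100 bp upstream of CDH1 (E-cadherin, a cell adhesion protein), the values were 65.4, 66.9 and 17.3, with no RelA call. Strong p50 and p52 enrichment was thus found with and without RelA calls.

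RelB was called at 535 members (32.8%, interval 30.5 to 35.1), beside 26.8% of all union regions. The share was 28.7% (26.9 to 30.6) in the balanced regions inside genes, 42.2% (38.9 to 45.6) in those beyond 100 kb, 6.73% in the regions of the same window skewed to p50 and 31.3% in those skewed to p52. Among regions with both a p50 and a p52 call, RelB was called at 37.2% (34.4 to 40.0) of the members, beside 37.8% of the union regions, 32.8% inside genes and 34% beyond 100 kb. In the same window the share among such regions was 11% (24 of 219, 7.48 to 15.8) of those skewed to p50 and 58.2% (202 of 347, 53.0 to 63.3) of those skewed to p52, and neither interval overlapped that of the members. At members with p52 but not p50 RelB was called at 8.79% (27 of 307, beside 9.6%), and with p50 but not p52 at 7.50% (9 of 120, beside 5.1%). The RelB share of the members with both calls was therefore near the background of the union.

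**Figure D2:**
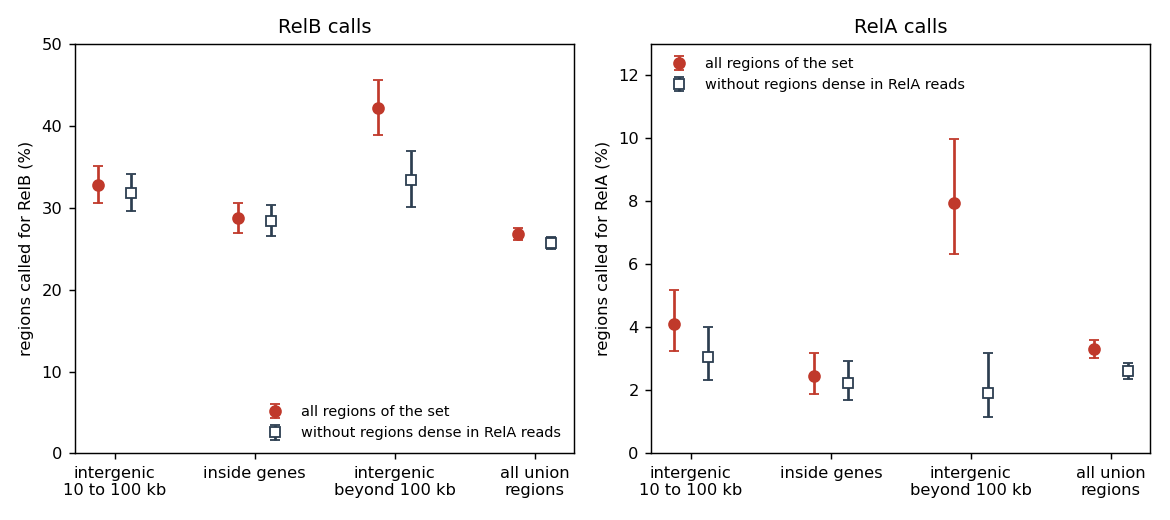
Percent of regions called for RelB (left) and RelA (right) in the members, 2 other balanced sets and the whole union, with Wilson 95% intervals. Circles are all regions and squares leave out those with more than 5 times the median RelA read density. The members stand at 32.8% and 31.9% for RelB, and the set beyond 100 kb at 42.2% and 33.4%.

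RelB calls were more frequent where p50 and p52 were stronger. Divided into quartiles of the geometric mean of both fold enrichments, RelB was called at 15.0% (11.3 to 19.7), 23.9% (19.3 to 29.3), 44.8% (39.1 to 50.7) and 65% (59.2 to 70.3) of the 1119 members. The median width ran in the same order from 817 to 1191 bp and the median RelB read density from 19.0 to 40.2 reads per kb. The median p50 and p52 fold enrichments were 26.8 (24.9 to 28.2) and 30.2 (28.6 to 32.2) at the 416 members with a RelB call, and 16.3 (15.7 to 16.9) and 17.7 (16.9 to 18.4) at the 703 without. The signal values of either replicate ran the same way, with medians for p50 of 811 and 705 with a RelB call and 384 and 321 without it. The order of the median fold enrichments was the same in the other sets. At balanced regions inside genes with both calls they were 25.1 and 29.6 with RelB and 16.4 and 17.9 without. Beyond 100 kb they were 21.3 and 26.5 against 17.1 and 18.8, and over the union 24.7 and 29.8 against 18.0 and 17.5. How far peak detection at low RelB read numbers contributes to this order was not tested. The 703 members without a RelB call still held a median of 18.6 RelB reads per kb, beside 45.5 at those with one.

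Within the balanced range the RelB share also ran with the ratio of p50 to p52 reads. At members with both calls it was 50.0% (44.5 to 55.5) for log2 ratios from -0.7 to -0.35, 40.1% (34.8 to 45.7) up to 0, 30.0% (25 to 35.6) up to 0.35 and 23.6% (18.4 to 29.7) up to 0.7. The strength of p50 and p52 was also highest in the first of these bins, with a median geometric mean of 23.2 against 20.5, 17.9 and 18.5. In the strongest quartile RelB was called at 136 of 187 members with more scaled p52 reads (72.7%, 65.9 to 78.6) and at 46 of 93 with more p50 reads (49.5%, 39.5 to 59.4). In the weakest quartile the order did not hold (18 of 132, 13.6%, against 24 of 148, 16.2%, with overlapping intervals).

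**Figure D3:**
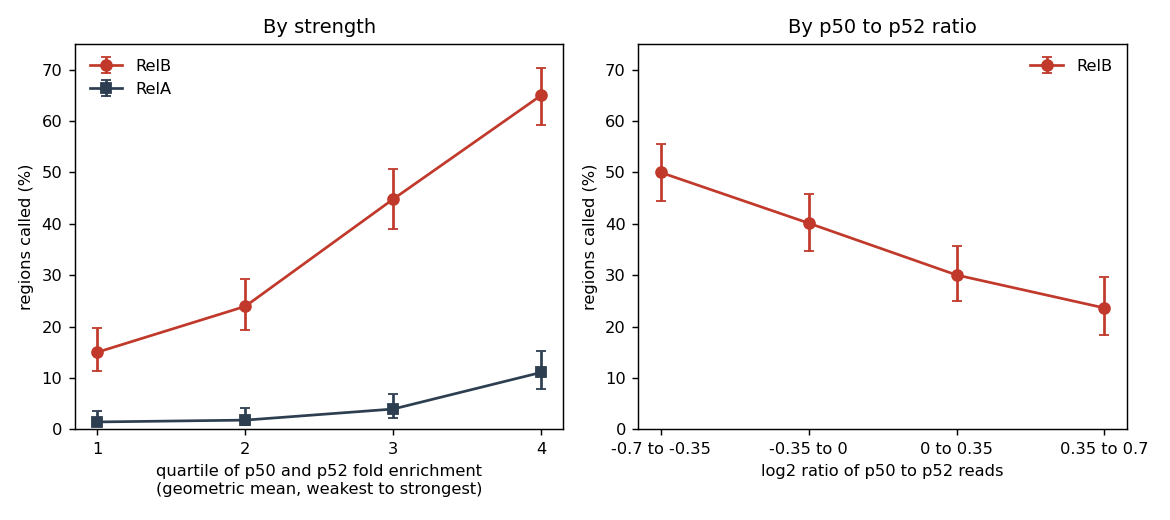
Percent of members with p50 and p52 calls that were also called for RelB or RelA, by quartile of p50 and p52 strength (left) and by log2 ratio of p50 to p52 reads (right, RelB only), with Wilson 95% intervals. RelB runs from 15.0% to 65% with strength and from 50.0% to 23.6% towards p50.

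The median RelB fold enrichment of members called for RelB was 9.33 (8.80 to 9.96, n = 535), beside 9.08 over the union. It lay below the geometric mean of p50 and p52 at 404 of 416 members with all 3 calls, with a median log2 difference of -1.32 (-1.43 to -1.23). Fold enrichments of different subunits come from different antibodies and libraries, so a difference between them need not be one of occupancy. The 5 highest RelB values were 46.4 at chr8:142484310-142486778, 45.6 at chr14:93881427-93883497, 44.7 at chr2:219469057-219471710, 41.5 at the chromosome 7 member named above and 38.2 at chr1:211167911-211169460, 21017 bp upstream of VASH2, a gene related to the angiogenesis regulator vasohibin.

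At 12 members RelB had the higher fold enrichment, and these were singled out after their values were seen. Of the 12, 3 held more than 5 times the union's median RelA read density. The largest excess was at one of these, chr21:10207664-10208850, with fold enrichments of 4.14 for p50, 3.63 for p52 and 6.80 for RelB and 143 RelA reads per kb. The next was chr1:557242-557641, with 3.59, 4.67 and 6.50 and 130 RelA reads per kb, and the last of the 3 was chr2:132727887-132730168, with 5.51, 4.76 and 5.52. Of the 9 others, 3 are described here, 2 with a named gene and 1 with a high RelA value. One lay 24721 bp upstream of CD70, the TNF family ligand of CD27 (chr19:6566884-6567438). It held 36 p50, 64 p52, 52 RelB and 22 RelA reads and had fold enrichments of 10.1, 16.5, 20.6 and 9.26. Another lay 44884 bp upstream of IRF2, an interferon regulatory factor (chr4:185632103-185633521), with 135, 94, 101 and 40 reads and fold enrichments of 29.5, 19.1, 32.3 and 8.82. A further one, chr12:107534591-107535891, had the highest RelA value of all members called for all 4 subunits (11.8) and fold enrichments of 23.0, 30.4 and 35 for p50, p52 and RelB. Both RelB signal values were above the members' medians of 167 and 325 at 8 of the 12 sites, with 520 and 744 at CD70, 1429 and 979 at IRF2 and 2303 and 1152 at the last one.

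RelA was called at 67 members (4.11%, 3.25 to 5.18), beside 3.31% of the union, 2.46% inside genes and 7.97% beyond 100 kb. Without regions dense in RelA reads, described below, the shares were 3.05%, 2.61%, 2.24% and 1.92% in the same order. As those regions are chosen by their RelA reads, this is a description. RelB was called at 62 of these 67 (92.5%, 83.7 to 96.8, beside 88.8% of the RelA regions of the union). The median RelA fold enrichment was 5.86 (5.48 to 6.99), and the RelA value was below that of RelB at 48 of the 49 members with all 4 subunits. In the study's quality control the RelA libraries had the lowest normalized strand cross-correlation of the 4 subunits, although all libraries passed. How far this contributes to the RelA shares and values was not tested. The 51 members with p50, p52 and RelA calls had median fold enrichments of 33.4 for p50 and 37.1 for p52, against 18.6 and 20.4 for the 1068 without a RelA call. Besides the CD70, IRF2 and chromosome 12 sites, the highest RelA values of these 49 included 10.4 at chr3:5023038-5023938, 26830 bp downstream of the TSS of BHLHE40, a transcriptional repressor of the circadian clock. Another was 8.81 at the CCR7 member described below.

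RelB was called with neither p50 nor p52 at 83 members (5.09%, 4.12 to 6.26, beside 4.13%), while the share was 3.40% inside genes and 19.5% beyond 100 kb. Some of these 83 were dense in RelA reads. In all, 28 members held over 78.1 RelA reads per kb, which is 5 times the union median of 15.6, and 18 of them were among the 83. These 28 held medians of 143 RelA and 117 RelB reads per kb, against 15.7 and 24.0 over all members. Their medians of 108 p50 and 134 p52 reads per kb were nearer those of all members (95.2 and 109). However, only 4 of the 28 were called for both p50 and p52, so most of these reads were not in regions with both calls. Beyond 100 kb, 113 of 841 regions exceeded this density, and inside genes 8 of 2237.

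The 28 dense members lay on 10 chromosomes. With members joined over gaps of at most 50 kb, 20 of them shared a group with another dense member, in 5 groups, and 8 did not. A run of 8 members covered chromosome Y from 11929629 to 11950247, with 1693 RelA, 1167 RelB, 1229 p50 and 1497 p52 reads in all, and all 8 were called for RelB, 6 for RelA and 1 for p52. Of these 8, 7 were over the density limit. Another run of 6, with 4 over the limit, covered chromosome 2 from 132713560 to 132736991 and held 1111 RelA, 873 RelB, 968 p50 and 990 p52 reads. In both runs the RelA reads outnumbered those of RelB, which was the case at 378 of all members. Fold enrichments over input, where called, were low beside the members' medians of 5.86 for RelA and 9.33 for RelB. They were 2.64 to 3.79 for RelA and 3.71 to 6.72 for RelB in the chromosome Y run. In the chromosome 2 run they were 2.55 to 4.86 and 3.42 to 5.97. The RelA calls of the chromosome Y run had pileups (coverage at the summit) of 47 to 71 fragments. The median pileup of all members called for RelA was 24, so that the input signal was also high in the chromosome Y run. Mappability and copy number were not tested. Without the 28 members, RelB was called at 31.9% (29.6 to 34.2) and RelA at 3.05% (2.32 to 4.02), beside 25.7% and 2.61% in the union without its dense regions. As these regions were left out by their RelA reads, the lower RelA shares follow from the choice and are a description.

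At the opposite end, 13 members held fewer than 20 p50 and p52 reads together, and all of them were called for RelB alone. They had at most 11 p50 and 9 p52 reads, 13 to 22 RelB reads and 0 to 9 RelA reads. They counted as balanced with hardly any reads of either subunit, and at such numbers the ratio is imprecise. The strongest of the members with RelB alone was chr7:156033296-156034267, 83256 bp upstream of a TSS, with a RelB fold enrichment of 12.7 from 63 RelB, 65 p50, 53 p52 and 17 RelA reads. The next 4 in order had RelB fold enrichments of 11 to 11.8.

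**Figure D4:**
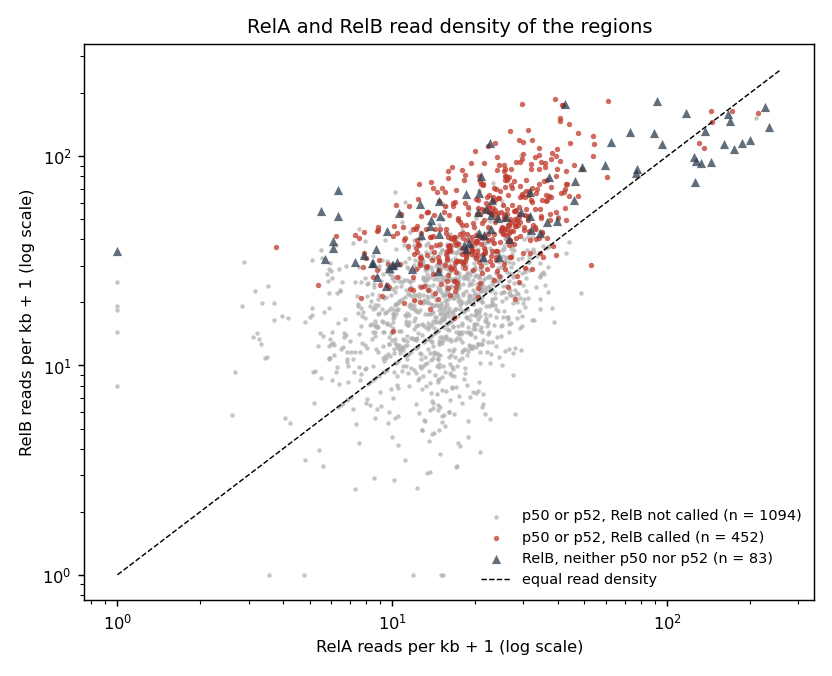
RelA (x axis) and RelB (y axis) reads per kb, each plus 1 and on a log scale, for the members with a p50 or p52 call (dots, red where RelB was called) and for the 83 called for RelB with neither (triangles). The 1094 members without a RelB call centre near the line of equal density, 435 of the 452 with one lie above it, and a tail of triangles follows the line at over 78.1 RelA reads per kb. RelB calls are made from RelB reads and the densities are not scaled to the subunits' totals, so these positions are a description.

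Of the members, 1100 (67.4%, 65.1 to 69.6) lay upstream of their closest TSS, and the share over the whole window, whatever the ratio, was 67.4% (65.7 to 69.0) as well. It was 35.2% over all union regions, 19.3% in the balanced regions inside genes and 50.8% in those beyond 100 kb. The rule leaves out sites within gene bodies, which lie downstream of their own TSS, so the share is a description. Upstream and downstream members had overlapping intervals. RelB was called at 31.6% (29.0 to 34.4) and 35.2% (31.2 to 39.3), and the median geometric mean of p50 and p52 fold enrichment was 19.9 (18.6 to 20.8) and 20.7 (19.0 to 22.5). The median distance to the TSS was 33887 bp. By distance, RelB was called at 35.3% of the 428 members from 10 to 20 kb, 33.1% from 20 to 30 kb, 30.4% from 30 to 50 kb, 29.6% from 50 to 70 kb and 35.4% of the 243 from 70 to 100 kb, with overlapping intervals. The closest gene was not the gene of the closest TSS at 310 members (19.0%), so that the assignment of a site to a gene is uncertain.

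Joined over gaps of at most 50 kb, the members formed 1167 groups, of which 878 were single members, and 754 members (46.2%) had another member within that gap. Any union region lay within 50 kb of 77.3% (75.2 to 79.2) of the members, beside 70.8% of all union regions, 74.9% (73.0 to 76.6) of the balanced regions inside genes and 67.1% (63.8 to 70.2) of those beyond 100 kb. Among 465 pairs of neighbours RelB was called at both in 78, at 1 in 184 and at neither in 203. These pairs include the chromosome Y and chromosome 2 runs described above, in which all members were called for RelB. Such counts were not made for neighbours over all union regions, so they are a description only. The largest group held 12 members over 162 kb (chr2:9699050-9860656), with 9 p50 calls, 11 p52 calls, 4 RelB calls and 1 RelA call. Its strongest member, chr2:9699050-9699737, had fold enrichments of 31.3, 45.6, 17.6 and 4.83, and the p52 values of the other called ones ran down to 8.54. In all, 1189 genes were the closest TSS of a member, and 94 of them had at least 3.

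Gene names were available for 215 of the 1401 genes closest to a member by gene or TSS. These names come mostly from the study's lists of regulated genes and are thus a selected subset. Among the named genes with any union region, 215 of 1136 (18.9%) had a member, and the gene lists are described beside that share. The lists were cytokines and their receptors (8 of 12 genes with any region), B cell transcription factors (4 of 8), apoptosis and cell cycle genes (4 of 11), NF-κB and IκB genes (2 of 8), NF-κB signalling genes (2 of 5), chemokines and receptors (2 of 8), AP-1 and ATF factors (2 of 7) and IRF factors (2 of 3). The remaining lists had a single gene each, namely CD70 (TNF family, 1 of 3), CD44 (costimulation and adhesion, 1 of 4), JAK1 (JAK, STAT and SOCS, 1 of 5), GATA3 (a list of RUNX, ETS, GATA, LEF and Notch pathway genes, 1 of 4) and ACTB (housekeeping, 1 of 2). Listed genes that could not be matched to an identifier are left out of these counts. Only 6 of the 23 NF-κB signalling genes and 3 of the 16 TNF family genes, for example, were matched. Genes with many regions are more likely to have a member, and no list was tested.

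Among NF-κB genes, BCL3, the IκB protein that serves as co-activator of p50 and p52, had a member 22377 bp upstream with fold enrichments of 38.7 for p50, 44.9 for p52 and 18.2 for RelB. The body of another gene, which the tables used here do not name, was closer (4240 bp). NFKBIA, which encodes IκBα, had one 10801 bp upstream with 22.9, 23.1 and 8.97. TNFAIP3, which encodes the inhibitor A20, had 3 members from 40973 to 59695 bp downstream of its TSS. The most distant of these was called for p50 (19.0), p52 (30.9) and RelB (10.0), and the others for p52 only (13.1 and 16.9). The member 12005 bp upstream of TNIP1, a partner of A20, had 28.8, 19.2 and 6.07 and was closer to the body of ANXA6.

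CCR7, a chemokine receptor that guides lymphocytes to lymph nodes, had 5 members from 21691 bp downstream to 37278 bp upstream of its TSS. The strongest, chr17:36007573-36009879, lay 32323 bp upstream and held 426 p50, 757 p52, 160 RelB and 72 RelA reads, with fold enrichments of 53.3, 80.3, 26.9 and 8.81. Its log2 ratio of -0.70 was just inside the limit. The most distant member, chr17:36012528-36013418, had nearly equal p50 and p52 fold enrichments of 45.7 and 48.1 and a RelB value of 6.32. The others had p52 values of 44.2, 10.4 and 10.9, and 4 of the 5 members were called for RelB. At 3 of the 5, both members described among them, the body of another gene without a name in the tables was closer than CCR7 (24093 to 27632 bp). For CCL5, a chemokine that attracts T cells, the member 11257 bp upstream had 22.0 for p50 and 13.4 for p52 without RelB.

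**Figure D5:**
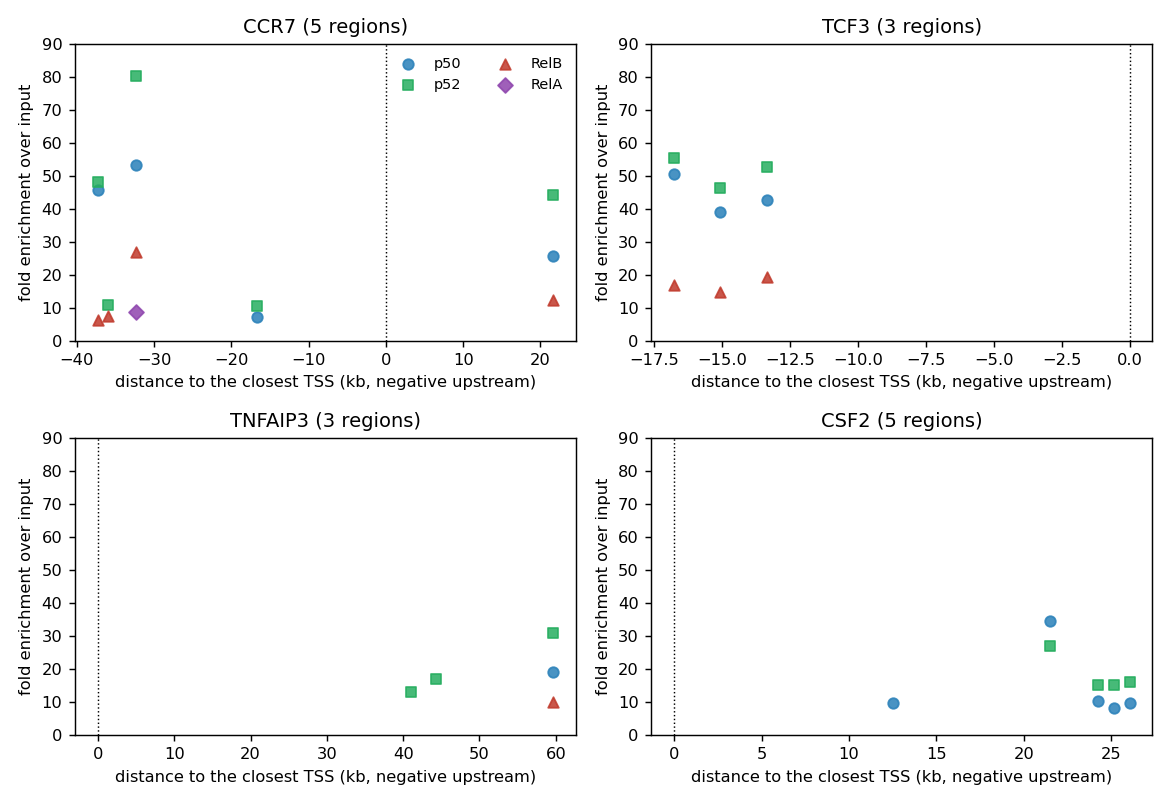
Fold enrichment over input of called subunits (y axis) at the members of 4 genes against the distance to the closest TSS in kb (x axis, negative upstream, dotted line at the TSS). RelB was called at all 3 TCF3 members and 4 of 5 CCR7 members, at 1 of 3 TNFAIP3 members, and at none of the 5 CSF2 members.

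TCF3, which encodes the E2A factors of B cell development, had 3 members within 13347 to 16768 bp upstream. Their fold enrichments were 42.5, 52.6 and 19.3 for p50, p52 and RelB at the first, 39.0, 46.3 and 14.8 at the second and 50.6, 55.3 and 16.8 at the last. All 3 were therefore called for the same subunits at like levels. PRDM1, the regulator of plasma cell differentiation, had a weaker member 93571 bp upstream, with 15.7 for p50 and 11.7 for p52. GATA3, a factor of T cells that is found in Hodgkin lymphoma cells, had 3 members from 47787 to 99739 bp downstream, and RelB was called only at the nearest (41.5, 44.0 and 18.6).

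CSF2 had 5 members from 12492 to 26058 bp downstream, and RelB was called at none of them. The strongest, chr5:131458860-131459555, held 194 p50, 146 p52, 14 RelB and 21 RelA reads, with fold enrichments of 34.5 and 26.9. The others had p50 values of 8.05 to 10.2. By contrast, the single member of IL7, a lymphocyte growth factor, lay 50531 bp upstream and had 42.6, 58.9 and 24.2 for p50, p52 and RelB.

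BATF, which pairs with JUN proteins in lymphocytes, had members 22539 and 28207 bp upstream with p52 fold enrichments of 22.0 and 53.2, neither called for RelB. The more distant one was closer to the body of another gene (21782 bp) and held 58 RelB reads next to 278 of p50 and 472 of p52. IRF1 had a member 10240 bp upstream with 19.3 for p50 and 15.5 for p52, and JAK1, a cytokine receptor kinase, one 35943 bp upstream with 25.3, 15.9 and, for RelB, 6.10. Of the cell survival genes, BCL2L11, which encodes the pro-apoptotic protein BIM, had a member 80037 bp downstream of its TSS with 37.3, 34 and 26.3. Its RelB signal values were 277 and 2012, and the second value was also the larger one in the members' medians (167 and 325). A like gap was seen at the CDH1 member described above, with 134 and 974. CDKN2C, a cell cycle inhibitor, had one 15958 bp downstream with 34.1 and 21.3 and no RelB call, and IER3, an early response gene, one 22698 bp upstream with 6.63, 10.9 and 5.18.

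The replicates can be compared only by the 2 signal values of each called region. Over the called members their log2 ratio, after removal of the median ratio over all regions of the subunit, had a median size of 0.46 for both p50 (n = 1239) and p52 (n = 1426). It was 0.94 for RelB (n = 535), and RelA had 0.87 (n = 67). After that removal the typical pair differed by 1.38-fold for p50 and p52, by 1.92-fold for RelB and by 1.83-fold for RelA. The p52 replicates were made with different antibodies, and the removal also takes out any overall offset between them. Without it, the medians of the p52 signal values over the members were 235 and 429. Spearman's rho between the signal values, as a description over regions, was 0.79 each for p50 and p52, with RelB at 0.43 and RelA at -0.14. Among called members the order was thus alike in both replicates of p50 and of p52, less so for RelB, and not for RelA. A call itself required agreement between the replicates by irreproducible discovery rate. These values are therefore no independent measure of reproducibility.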

How the data were processed

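The authors made ChIP-seq libraries from L1236 cells and processed reads with CASAVA, Bowtie (hg18) and SAMtools per the submitters' processing notes. According to the methods they kept unique reads, removed duplicates, sampled libraries to equal size, called peaks with MACS and compared replicates by irreproducible discovery rate (IDR). Versions are not given in the sources used here. The deposited counts are whole reads per region from merged replicates, and whether they precede the sampling is not stated. The deposited fold enrichment is a ratio to input, and the deposited pileup a coverage signal at the summit. The deposited IDR is a rate given as a fraction, and the deposited FDR of MACS a q-value. All IDR values of called regions were below 0.01, under the looser IDR threshold that the methods name, so that which threshold was applied is not settled. The deposited signal values are a score per replicate, not assigned to a replicate by the table. Distances are the authors', to Ensembl 54 genes, with negative values upstream by the strand (checked on 2602 genes).

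Over all regions there were 1654137 p50, 1810792 p52, 470788 RelB and 315151 RelA reads, and the members held 10.4% to 12.8% of them. These totals limit the precision of single regions, most for RelA. The log2 ratio used 1 added read. Shares and medians were set beside those of all union regions and of other balanced sets. No test was run, since values come from merged replicates and regions are not replicates. The members and gene lists were chosen with earlier results of these data known.

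Regions named are the 10 strongest for p50 and p52, the 5 strongest for RelB, those with the 10 highest RelA values among members with all 4 subunits, the genes with most members, the amplicon sites, up to 3 genes per list with the strongest member, the 5 strongest with RelB but neither p50 nor p52, and those nearest the limits. Some of these are not reported here. Gene symbols came only from the study's tables and primer list, which pair them with Ensembl identifiers, and the RefSeq table held no such identifiers. Calculations ran in Python (3.11.15) with scipy (1.17.1), pandas (2.3.3), numpy (2.4.6) and matplotlib (3.10.9). The selection and intervals were tested on simulated data. Sequences of the regions were not used here.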

Additional observations from a re-analysis of the deposited data

How the results depend on the processing

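The number of members and 9 summary values over them, with the rank correlations of the signal values, were recomputed with 1 choice changed at a time. Each setting was run for the values it bears on, and the RelB shares by strength, ratio or distance, the groups and the gene lists were not recomputed. Of 85 alternative values 68 stayed within the interval of the value reported (within 1.5 times for the number of members, and within 0.1 for rank correlations), and all IDR values were already below 0.01, so that threshold changed nothing. The 68 include all values at that threshold, which could not move. The number of members was 804 with a ratio limit of 0.35 and 708 with a window of 20 to 50 kb. The share called for both p50 and p52 moved to 73.0% with the limit of 0.35, 64.3% with a limit of 1, 70.9% in the narrower window and 65.4% when summits had to lie within 250 bp, and the share upstream was 65% in the narrower window. With pileup in place of fold enrichment, the medians were 62 fragments for p50, 56 for p52 and 30 for RelB, in other units. Among settings chosen after seeing the data, an IDR below 0.001 gave 22.9% for RelB, 2.42% for RelA and 72.1% for p50 with p52, beside 19.1% and 2.13% of the union for RelB and RelA. RelA was called at 3.05% without the regions dense in RelA reads, and RelB at 29.2% without members called for neither p50 nor p52. The cause of these shifts was not tested. Each signal value alone gave a rank correlation with the merged fold enrichment over members that ran between 0.86 and 0.90 (p50), 0.85 and 0.92 (p52), 0.59 and 0.84 (RelB), and -0.053 and 0.22 (RelA). For RelA the mean of both gave 0.16. The merged fold enrichment holds the reads of both replicates, so these correlations are not between independent values. No paired analysis was possible because the values are of merged replicates, the signal values are not assigned to replicate numbers, and no result comes from a test.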
